A study of Mus musculus with 18 samples.

Results

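Gene expression in wild-type mouse molar epithelium was compared between embryonic day 17 (E17) and the day of birth (postnatal day 0, P0). The comparison used 6 of the 18 libraries of the series, namely all 3 wild-type libraries of each of these stages. Genes were taken if a transcript of theirs was listed in both the E17 and the P0 table, which left 4546 of the 32532 genes of the E17 table. These genes lie on chromosomes 1 and 10 and on chromosome 11 up to position 96873954 (mm10), and the 2149 that reached a level of 1 in 3 or more of the 6 libraries were tested. The series also holds libraries from mice labelled double knockout (DKO), lacking HMGN1 and HMGN2, which are small nucleosome-binding proteins. The 6 double-knockout libraries at E17 and P0 are used below where a stage difference is compared between genotypes. The remaining libraries, of both genotypes at postnatal day 5, were not used. Per the labels, every group was molar epithelium freed from the mesenchyme with dispase at 1 U/ml, without culture or any agent that differed between groups. Strain, sex, litter and the number of animals per library were not given in the sources used here. Whether libraries of 1 group were made from different animals is not stated, and the p-values therefore rest on the spread between libraries, part of which may be technical.

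The dental epithelium is the cell sheet that becomes the enamel organ. Around birth its inner layer stops dividing from the cusp tips downward, polarises and turns into ameloblasts, the cells that secrete enamel, while Wnt, BMP, FGF and Hedgehog signals pass between it and the mesenchyme below. Homeobox factors of the Dlx family, gap junctions and the laminin-rich basement membrane are among the parts known to be needed for this change. Most enamel matrix genes lie on other chromosomes and were not analysed here.

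Levels are RPKM, read numbers divided by transcript length and by sequencing depth, summed over the transcripts of a gene and scaled so that the upper quartile of the shared genes was equal in all libraries ("scaled RPKM"). The libraries held 65953495 to 93206014 alignments at E17 and 74845352 to 96866169 at P0, and a single read was worth 0.0247 to 0.0362 RPKM on a transcript of 1 kb. In the E17 table the targeted genes stood, in the wild-type libraries, at 133, 129 and 123 RPKM for Hmgn1 and 354, 344 and 320.0 RPKM for Hmgn2, without scaling. In the libraries labelled double knockout Hmgn1 stood at 86.2, 92.9 and 92.7 RPKM and Hmgn2 at 0.839, 0.953 and 0.975 RPKM, so Hmgn2 was nearly absent and Hmgn1 was lower but present, where the values do not say whether the remaining Hmgn1 reads lie outside the deleted part. At P0 these genes were not analysed here. The stages were deposited as separate tables, so stage and table cannot be told apart, and every "rose" or "fell" below is a difference between the P0 and the E17 libraries. Within a stage, libraries correlated at r = 0.992 to 0.996 across genes, and between stages at 0.912 to 0.932, where genes are not independent replicates.

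The E17 tissue held the defining epithelial keratins. In the E17 table, which covers all chromosomes, Krt5 stood at 1175, 995 and 1105 RPKM and Krt14 at 581, 505 and 508 RPKM, without scaling. The same libraries held Col1a1, a collagen of mesenchymal and bone-forming cells, at 1840, 2110 and 1976 RPKM, above Krt5 in each library. At P0 the keratin genes on other chromosomes were not analysed here, and the epithelium was checked by 22 epithelial genes on the shared chromosomes, of which 1 (Crb1) had a mean under 0.1 at both stages.

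With limma on log2(scaled RPKM + 1) and Benjamini-Hochberg adjustment over all 2149 genes, 716 genes were higher at P0 (33.3%) and 609 were lower (28.3%), 61.7% in all at an adjusted p under 0.05. A log2 difference on this scale understates the change of genes with low levels. Most differences were small, with a median absolute log2 difference of 0.27, and 75 higher and 147 lower genes passed with a difference of at least 1. Without scaling, 1120 genes were higher and 376 lower, so the share of higher genes among those called was 54.0% with scaling and 74.9% without. The median over all genes was 0.04 with scaling and 0.24 without, and all 716 higher and 376 of the 609 lower genes kept their call without scaling.

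The largest rises included signals and transcription factors of the tooth epithelium. Ascl5, a basic helix-loop-helix factor of ameloblasts, stood at 6.26, 5.5 and 6.91 scaled RPKM at E17 and at 87.5, 100.5 and 85.7 at P0. It rose 14.7-fold, by 3.68 ± 0.09 (log2, SE, n = 3 against 3, limma adjusted p = 1.0e-08). All P0 libraries lay above all E17 libraries, as in 36.8% of all tested genes. The ratio of means was larger for Pi15 (20.4-fold), Ecel1 (19.5-fold) and Ggt1 (18.3-fold), whose log2 differences were smaller. These ratios rest on low E17 levels. At E17 Pi15 was at 0.336, 0.527 and 0.521, Ecel1 at 0.518, 0.577 and 0.706 and Ggt1 at 1.04, 0.599 and 0.902. Pi15 and Ecel1 therefore entered the test through P0 alone. The promoter of Ascl5 is printed here because its rise was the largest on log2(scaled RPKM + 1), as the 250 bases before the RefSeq start (GRCm38.p6, chr1:136050554-136050803, plus strand), with capitals on CTTTGT, the core bound by TCF/LEF factors, and on the E-box CANNTG, both searched on both strands.

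Ascl5: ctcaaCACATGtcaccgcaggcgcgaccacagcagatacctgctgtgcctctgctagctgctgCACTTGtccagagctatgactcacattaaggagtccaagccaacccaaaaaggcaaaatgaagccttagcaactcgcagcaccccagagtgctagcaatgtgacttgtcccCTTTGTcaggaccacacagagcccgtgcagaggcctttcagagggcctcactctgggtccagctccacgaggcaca

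CTTTGT was found in this window in 197 of the 1740 tested genes whose promoter was in the RefSeq table (11.3%), and CANNTG in 988 (56.8%). Among the 9 of the 12 largest rises with an entry, 3 held CTTTGT and 8 held CANNTG. A match is a description of letters and not a bound site.

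Dlx3, a homeobox factor of the enamel organ, was at 10.8, 14.9 and 12.1 scaled RPKM at E17 and 68, 78.2 and 69.7 at P0, a 5.72-fold rise (log2 2.43 ± 0.11, limma adjusted p = 1.9e-07). Its neighbour Dlx4, which is read from the opposite strand, was at 2.01, 2.76 and 2.24 and then 9.13, 13.7 and 9.72, a rise of 1.81 ± 0.14 (adjusted p = 6.2e-06, limma). The genes lie at chr11:95120119-95125296 (Dlx3) and chr11:95140447-95146263 (Dlx4) in GENCODE M21, and the difference from the double knockout did not pass the interaction test for either (limma adjusted p = 0.15 and 0.3), but it passed for Dlx3 without scaling (0.48, limma adjusted p = 0.0068). All 3 P0 libraries lay above all 3 E17 libraries for both, as in 36.8% of all tested genes, and in 30.7% all P0 libraries lay below.

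Ligands and receptors of the Wnt pathway moved in both directions. Of 18 tested genes of the list, 11 were higher and 4 lower, with a median log2 difference of 0.25, against 33.3% and 28.3% and a median of 0.04 over all genes. Wnt3a was at 3.02, 3.1 and 2.73 scaled RPKM at E17 and 23, 26.2 and 23.4 at P0 (8.22-fold, log2 2.67 ± 0.07, limma adjusted p = 1.6e-08). Wnt6 went from 10.3, 9.97 and 9.46 to 54.7, 70.4 and 56.2 (6.09-fold, log2 2.48 ± 0.09, adjusted p = 1.0e-07, limma). Its neighbour on chromosome 1, Wnt10a, went from 6.2, 6.3 and 5.95 to 13, 18.6 and 13.7 (log2 1.16 ± 0.11, adjusted p = 2.8e-05, limma). These are secreted ligands, and for each the P0 libraries stood above the E17 libraries without overlap, as in 36.8% of all tested genes.

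Fzd5, a Wnt receptor, rose from 2.7, 2.94 and 3.15 to 8.32, 8.96 and 8.02 scaled RPKM (log2 1.26 ± 0.07). Tcf7, a transcription factor that acts with beta-catenin, rose from 10.04, 13.8 and 10.9 to 24.5, 27 and 25.4 (log2 1.09 ± 0.10). Lgr5, an R-spondin receptor that marks stem cells in several epithelia, fell from 4.86, 5.8 and 4.83 to 0.482, 0.189 and 0.297 (log2 -2.22 ± 0.10, limma adjusted p = 2.9e-07). Rspo3, an R-spondin, fell from 2.24, 2.62 and 2.27 to 0.149, 0.12 and 0.107 (log2 -1.58 ± 0.08). Lgr6, the relative of Lgr5, moved the other way by 0.23 ± 0.07 (limma adjusted p = 0.016), but did not pass without P0 replicate 3 (adjusted p = 0.058, limma). The 4 members that fell were Wnt9a, Lgr5, Rspo3 and Tle2, of which Lgr5 and Rspo3 were under 1 in every P0 library and entered the test through E17 alone, and Znrf3, Dvl2 and Gpc1 did not pass.

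**Figure D1:**
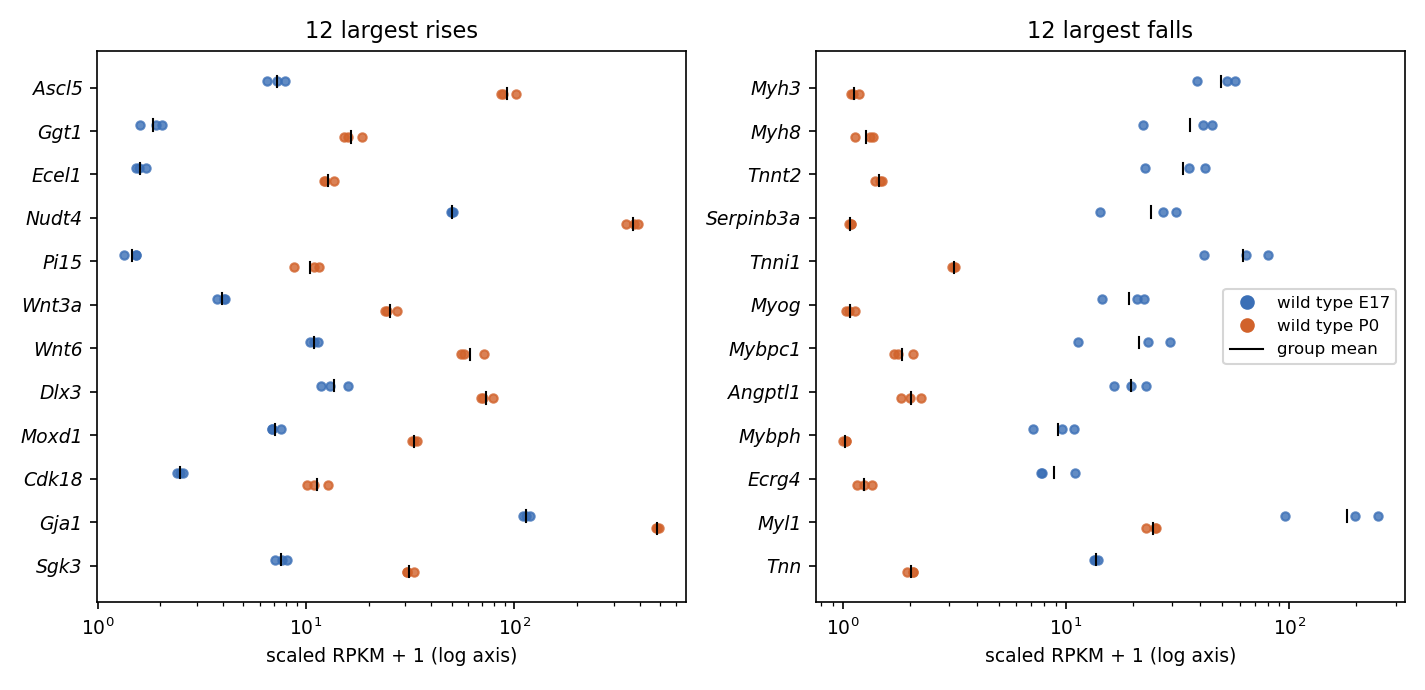
Scaled RPKM + 1 on a log axis for the 12 largest rises and the 12 largest falls at P0 in wild type (points are libraries, 3 per stage, and black bars are group means). The P0 libraries of Ascl5 sit between 85.7 and 100.5 scaled RPKM and its E17 libraries between 5.5 and 6.91, and replicate 2 is the lowest E17 library for Myl1, Myh8 and Serpinb3a.

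Genes of cell junctions, adhesion and polarity were more often higher than lower at P0. Of 19 tested members of the epithelial list, 13 rose and 4 fell, against 33.3% and 28.3% of all tested genes, with a median log2 difference of 0.54. The summed level of the 22 listed in both tables was 681 to 746 scaled RPKM at E17 and 1394 to 1529 at P0. Gja1, a gap junction connexin, had the largest rise of the list, at 109, 112 and 118 at E17 and 477, 482 and 495 at P0 (log2 2.09 ± 0.06, limma adjusted p = 2.4e-08). Without Gja1 the sum was 569 to 637 at E17 and 917 to 1047 at P0. Cd24a, a surface glycoprotein, rose from 133, 119 and 125 to 277, 311 and 306 (log2 1.24 ± 0.07). Vangl2, a planar polarity protein, rose from 9.72, 10.2 and 11.3 to 29.1, 35 and 30.1 (log2 1.5 ± 0.08). In each of these 3 all P0 libraries lay above all E17 libraries, as in 36.8% of all tested genes. Among the 4 that fell, Elf3, an epithelial transcription factor, went from 5.85, 4.64 and 5.18 to 1.44, 2.04 and 1.55 (log2 -1.22 ± 0.10). Cldn7, a claudin of tight junctions, went from 3.59, 2.97 and 3.61 to 0.911, 1.45 and 1.04 (log2 -1.05 ± 0.11).

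The basement membrane list split between 5 that rose and 6 that fell of 13 tested, against 33.3% and 28.3% of all tested genes. Those that rose were Lamb3, Itga3, Dst, Lamc1 and Col18a1. Lamb3, a chain of the epithelial laminin of hemidesmosomes, rose from 16.7, 17.3 and 15.2 to 33.9, 45.9 and 37.6 scaled RPKM (log2 1.20 ± 0.10, limma adjusted p = 1.2e-05). Itga3, a subunit of a laminin receptor, rose from 9.17, 10.4 and 10.1 to 19.2, 22.8 and 19. Lama2, Lama4, Hmcn1, Ntn1, Fn1 and Sparc fell, of which Hmcn1 was under 1 in every P0 library and entered the test through E17 alone.

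Genes of mineral and ion handling were mixed. Of 18 tested in the ion transport list, 8 rose and 4 fell (33.3% and 28.3% of all tested genes), with a median of 0.08. Of the 4, 1 was under 1 in every P0 library and entered the test through E17 alone. Enpp1, which makes pyrophosphate, rose from 5.15, 4.35 and 4.7 to 16.9, 17 and 17.1 scaled RPKM (log2 1.65 ± 0.07). Kcnk2, a potassium channel, rose from 3.75, 4.06 and 3.49 to 10.9, 11 and 11.4 (log2 1.35 ± 0.07). Slc13a5, a citrate carrier known in enamel and bone, fell from 10.6, 10.4 and 10.7 to 1.49, 0.916 and 1.03 (log2 -2.44 ± 0.10, limma adjusted p = 1.2e-07). Car4, a membrane carbonic anhydrase, was 2.41, 2.63 and 2.26 at E17 and 2.28, 2.62 and 2.11 at P0 and did not pass (limma adjusted p = 0.68). Outside the lists, Nudt4, a diphosphoinositol phosphatase, had one of the largest rises, from 48.6, 49.5 and 49.3 to 344, 393 and 373 (log2 2.88 ± 0.06, limma adjusted p = 1.0e-08).

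Other transcription factors were mostly lower. In the tooth factor list, 9 of 29 tested genes were higher and 17 lower, against 33.3% and 28.3% of all tested genes. The median log2 difference of the list was -0.27, and without scaling 10 were higher and 13 lower. Plagl1, an imprinted zinc finger factor, fell from 63.5, 59.5 and 65.3 to 12.2, 9.15 and 11.2 scaled RPKM (log2 -2.44 ± 0.09). Prrx1, a mesenchymal homeobox factor, fell from 39.7, 45.8 and 42.3 to 9.92, 5.57 and 8.84 (log2 -2.29 ± 0.16). Msc and Eya4 fell as well, with log2 differences of -1.96 ± 0.07 and -1.98 ± 0.11. Both were under 1 in every P0 library and entered the test through E17 alone. Of the other 27 tested members, 9 rose and 15 fell, with a median of -0.24. Several of the members that fell, such as Prrx1, Twist2 and Msc, are factors of mesenchyme or muscle, and the level of the mesenchyme list is given below. In the Hedgehog list of 4 tested, Gli1 and Gli2 fell, with log2 differences of -0.24 ± 0.07 and -0.68 ± 0.08 (limma adjusted p = 0.013 and 6.8e-05), but without scaling the difference of Gli1 was -0.02 and did not pass. Nor did Gli1 pass without E17 replicate 3 or without P0 replicate 3 (limma adjusted p = 0.055 and 0.06).

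Growth factor genes were more often lower. In the FGF, EGF and IGF list, 3 of 18 tested genes rose and 10 fell, with a median of -0.27, and without scaling 5 rose and 5 fell. Fgf18, a ligand, fell from 5.57, 3.99 and 4.66 to 0.199, 0.228 and 0.167 scaled RPKM (log2 -2.25 ± 0.10). It was under 1 in every P0 library and entered the test through E17 alone. Of the other 17 tested members, 3 rose and 9 fell, with a median of -0.23. Grb10, an imprinted inhibitor of insulin receptor signalling, fell from 103, 123 and 114 to 25.5, 17 and 23.2 (log2 -2.34 ± 0.13). Socs2, a feedback inhibitor of cytokine signals, rose from 14.9, 11.9 and 13.9 to 35.4, 34 and 35.8 (log2 1.31 ± 0.08). In the BMP and TGF-beta list, 4 of 11 rose and 3 fell, which is near the 33.3% and 28.3% of all tested genes. Nog, a BMP antagonist, rose from 4.35, 5.27 and 4.3 to 7.18, 8.17 and 7.88 (log2 0.63 ± 0.08). Tgfb2, a TGF-beta ligand, rose from 9.03, 11.5 and 10.2 to 19, 20.2 and 19.8 (log2 0.89 ± 0.08).

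**Figure D2:**
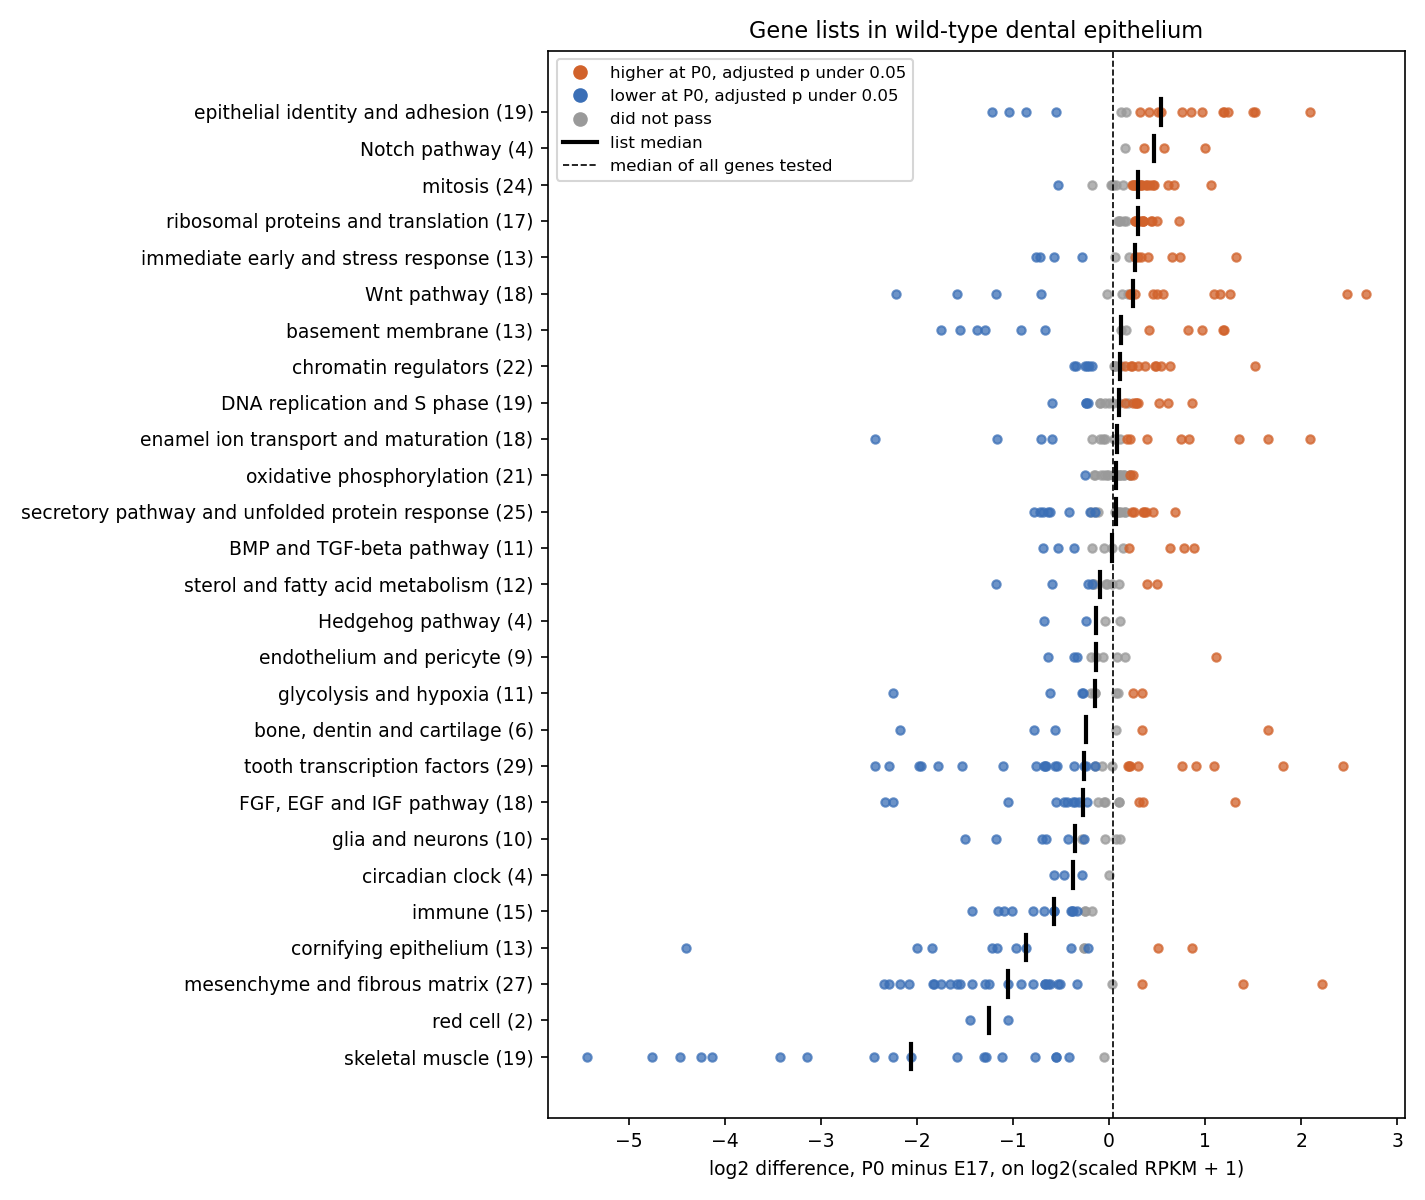
Log2 difference (P0 minus E17, on log2(scaled RPKM + 1)) of each tested member of 27 gene lists, with the number tested in parentheses (black bars are list medians, the dashed line is the median of all 2149 genes, and colours show the limma call at an adjusted p under 0.05). The epithelial list has the highest median, 0.54, and the skeletal muscle list the lowest, -2.06.

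Genes of mitosis were higher at P0 in wild type, with small differences. Of 24 tested, 17 rose and 1 fell, against 33.3% and 28.3% of all tested genes, and 6 did not pass. The median log2 difference was 0.30, against 0.04 over all genes, and without scaling 19 rose and 1 fell. Nek2, a centrosome kinase, went from 5.62, 6.2 and 5.77 to 12.8, 13.8 and 13.3 scaled RPKM (log2 1.06 ± 0.06, limma adjusted p = 9.5e-07). Cenpf, a kinetochore protein, went from 6.38, 7.21 and 7.13 to 11.6, 11.4 and 11.9 (log2 0.68 ± 0.06). Cdk1, the kinase that drives entry into mitosis, went from 70.1, 60.5 and 64 to 83.2, 80.1 and 82.4 (log2 0.33 ± 0.06, adjusted p = 0.0017, limma). For each of the 3 all P0 libraries lay above all E17 libraries, as in 36.8% of all tested genes. The exception was Hjurp, a centromere histone chaperone, which fell from 42.7, 48.5 and 47.6 to 33, 30.1 and 31.5 (log2 -0.54 ± 0.07).

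Promoters of 4 of these genes are shown because they moved together and many mitotic genes are known to carry a CCAAT box. Each line is the 250 bases before the RefSeq start (GRCm38.p6), read 5′ to 3′ on the gene's strand, with capitals on CCAAT (or its reverse complement ATTGG) and on TTTGAA, the core of the cell cycle genes homology region (or TTCAAA). The windows are chr10:69352913-69353162 (minus strand) for Cdk1, chr1:191821223-191821472 (plus) for Nek2, chr1:139454523-139454772 (plus) for Aspm and chr11:40733438-40733687 (minus) for Hmmr.

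Cdk1: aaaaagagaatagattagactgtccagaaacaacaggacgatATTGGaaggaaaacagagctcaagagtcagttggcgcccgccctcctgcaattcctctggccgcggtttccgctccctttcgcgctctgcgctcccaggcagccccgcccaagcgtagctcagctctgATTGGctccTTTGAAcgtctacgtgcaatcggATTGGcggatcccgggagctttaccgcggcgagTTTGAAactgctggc
Nek2: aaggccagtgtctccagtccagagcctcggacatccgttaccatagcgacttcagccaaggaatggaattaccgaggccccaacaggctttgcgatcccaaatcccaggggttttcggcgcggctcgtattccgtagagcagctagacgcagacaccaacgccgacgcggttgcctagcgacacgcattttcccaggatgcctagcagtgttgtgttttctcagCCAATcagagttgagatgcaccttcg
Aspm: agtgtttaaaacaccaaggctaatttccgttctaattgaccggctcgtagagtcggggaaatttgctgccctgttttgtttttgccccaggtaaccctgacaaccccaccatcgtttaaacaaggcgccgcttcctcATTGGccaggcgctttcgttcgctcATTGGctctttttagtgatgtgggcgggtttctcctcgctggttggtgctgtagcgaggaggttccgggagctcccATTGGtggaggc
Hmmr: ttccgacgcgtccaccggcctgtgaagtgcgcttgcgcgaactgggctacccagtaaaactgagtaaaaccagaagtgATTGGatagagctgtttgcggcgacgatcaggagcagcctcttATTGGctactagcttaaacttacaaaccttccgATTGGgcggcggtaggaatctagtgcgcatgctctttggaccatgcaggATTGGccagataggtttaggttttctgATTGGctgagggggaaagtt

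CCAAT stood 3 times in the window of Cdk1, 1 time in that of Nek2, 3 times in that of Aspm and 5 times in that of Hmmr. TTTGAA stood 2 times in the window of Cdk1. Of the 24 tested mitosis genes, 22 had a promoter in the table, and 20 of these held CCAAT (90.9%), against 613 of 1740 tested genes (35.2%). TTTGAA was in 5 of the 22 and in 10.1% of all. The motifs were chosen after the values were seen, both strands were searched, and no test was made.

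The stage difference of most mitosis genes departed from that in the double knockout. The interaction test (wild-type difference minus double-knockout difference, limma over 12 libraries and 2231 genes) was positive for 26.4% and negative for 16.6% of all genes, and positive for 22 of the 24 mitosis genes, with none negative. The 12 libraries were scaled together. A difference between tables that is the same in both genotypes cancels in this test. Without scaling 23 and with median-of-ratios scaling 20 of the 24 were positive, and none was negative in either. In the double knockout, 16 of the 24 were lower at P0 and none was higher, with a median difference of -0.37. Over all 2231 genes, 818 were lower and 639 higher in the double knockout, with a median of -0.06. Cdk1 differed by 1.17 ± 0.07 between genotypes (adjusted p = 2.1e-07, limma) and Nek2 by 1.11 ± 0.09 (adjusted p = 2.4e-06, limma). In the DNA replication list, 8 of 19 tested genes rose and 4 fell in wild type, against 33.3% and 28.3% of all tested genes. In the interaction test 11 of the 19 were positive. E2f7, a repressor of cell cycle genes, rose from 2.95, 3 and 3.01 to 6.19, 6.23 and 6.43 scaled RPKM (log2 0.87 ± 0.06).

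**Figure D3:**
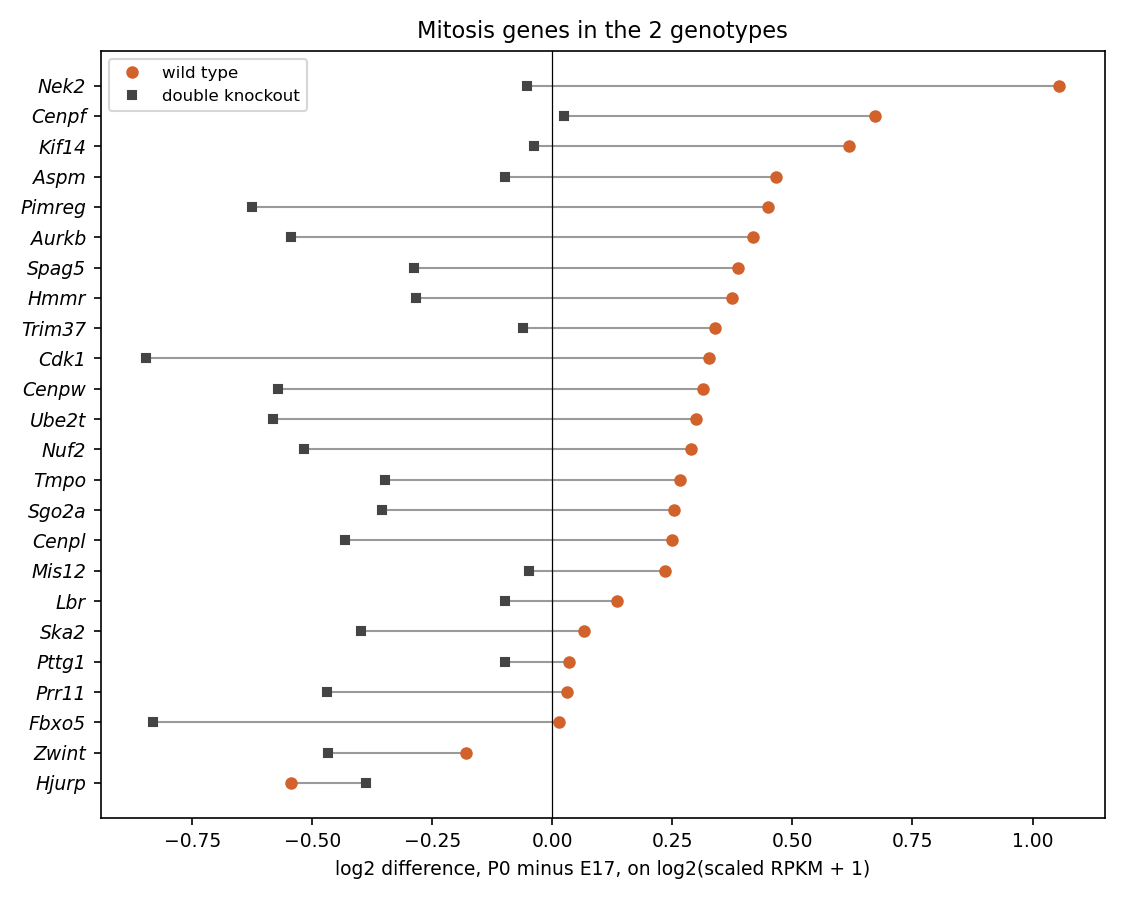
Log2 difference between P0 and E17 (on log2(scaled RPKM + 1), 12 libraries scaled together) of the 24 tested mitosis genes in wild type (circles) and double knockout (squares), joined by a line for each gene. The wild-type point lies to the right of the double-knockout point for every gene except Hjurp.

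Genes of other tissues were mostly lower at P0, where 33.3% of all tested genes were higher and 28.3% lower. Of 19 tested skeletal muscle genes, 18 fell, none rose and Myh4 did not pass, and the median log2 difference was -2.06. In 10 of the 19 every P0 library was under 1, so these entered the test through E17 alone and the count and median rest partly on that filter. Of the other 9, 8 fell, with a median of -1.58, and 509 of the 2023 tested genes that were not under 1 throughout a stage fell. The summed level of all 26 muscle genes in both tables was 237 to 438 scaled RPKM at E17 and 31.4 to 34.1 at P0. Myh3, the embryonic myosin heavy chain, stood at 56.3, 37.5 and 51.6 at E17 and 0.18, 0.0866 and 0.115 at P0 (log2 -5.44 ± 0.13, limma adjusted p = 1.0e-08). Myl1, a myosin light chain, went from 249, 94.8 and 196 to 24.4, 24.1 and 21.8 (log2 -2.78 ± 0.29). E17 replicate 2 was the lowest E17 library for Myl1, Myh8 and Tnni1. At P0, Myog, Myf5, Chrng, Chrnd, Chrne and Mybph had means under 0.1, and Chrne had a mean under 0.1 at E17 as well.

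The mesenchyme list fell in 23 of 27 tested genes and rose in 3, against 28.3% lower and 33.3% higher of all tested genes. Its median was -1.05, and its summed level was 4684 to 5052 scaled RPKM at E17 and 1457 to 1664 at P0. Col1a1 was 1991, 2273 and 2143 at E17 and 489, 462 and 464 at P0 (log2 -2.18 ± 0.08, limma adjusted p = 1.1e-07). Sparc, a collagen-binding matrix protein, was 1130.0, 1057 and 1061 and then 411, 323 and 380.0 (log2 -1.55 ± 0.10). No mesenchymal gene of the list had a mean under 0.1 at either stage. The 3 that rose were Sulf1, Moxd1 and Serpinf1, of which Sulf1, an enzyme that trims heparan sulfate, went from 12, 13.6 and 11.5 to 36.7, 31.4 and 34.8 (log2 1.40 ± 0.08). The part of these cells in the differences of the epithelial and transcription factor lists was not tested, and in bulk RNA fewer cells of a type and less RNA per cell cannot be told apart.

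Blood genes fell as well. The near-identical globin genes Hba-a1 and Hba-a2, whose reads could be split between them, went from 1278, 1518 and 1230.4 to 596, 705 and 631 scaled RPKM and from 1760.3, 2149 and 1698 to 649, 787 and 624. Of 15 immune genes tested, 12 fell and none rose, with a median of -0.57 (9 of 12 without the 3 that were under 1 in every P0 library, Cd48, Cd84 and Lcp2). The sum of the list was 106 to 117 at E17 and 45.8 to 55.3 at P0. Lyz2, lysozyme of myeloid cells, was 60.6, 57.8 and 51.5 at E17 and 22.7, 18.4 and 20.3 at P0 (log2 -1.43 ± 0.09). In the endothelial list 1 of 9 rose (Ackr3, a chemokine receptor) and 3 fell, against 33.3% and 28.3% of all tested genes. The sum of the endothelial list was 78.8 to 81.4 at E17 and 78.4 to 98.5 at P0. This sum includes Ackr3, at 15.8, 16.5 and 15.9 at E17 and 37, 35.5 and 35.5 at P0. It therefore does not show that the level of the other members was kept. In the glia and neuron list 6 of 10 fell and none rose, and without scaling 4 fell and 2 rose. Of the 6, 1 was under 1 in every P0 library and entered the test through E17 alone.

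Genes of cornifying surface epithelium fell in 9 of 13 tested and rose in 2, with a median of -0.86. Over all tested genes 28.3% were lower and 33.3% higher. In the list, 4 genes (Serpinb3a, Alox12, Alox12b and Alox12e) were under 1 in every P0 library and entered the test through E17 alone. Of the other 9, 5 fell and 2 rose, with a median of -0.27. Among all tested genes that were not under 1 throughout a stage, 509 of 2023 fell. Serpinb3a, a protease inhibitor with near-identical relatives, was 30.1, 13.1 and 26.3 at E17 and 0.0669, 0.0922 and 0.0855 at P0 (log2 -4.40 ± 0.24, limma adjusted p = 7.4e-07). Alox12b, a lipoxygenase of the skin barrier, was 2.85, 1.89 and 3.27 at E17, and in the P0 libraries it was at most 0.0227. The summed level of the list was 391 to 469.9 at E17 and 379 to 432 at P0. Much of this sum was Perp, a member that rose, at 199, 164 and 174 at E17 and 234, 276 and 255 at P0. The sum therefore does not follow the members that fell. Perp, Pkp1 and Elf3 are on both this list and the epithelial list.

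**Figure D4:**
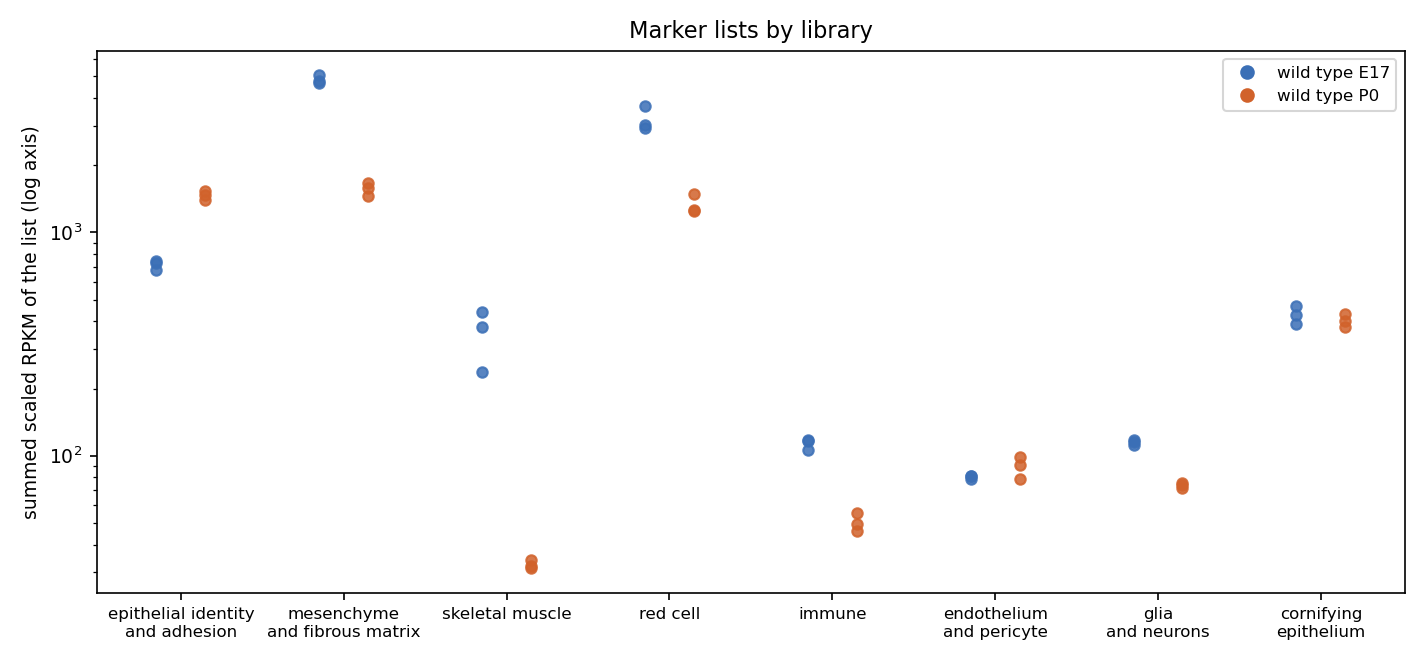
Summed scaled RPKM of 8 marker lists on a log axis, by library (blue, 3 wild-type E17 libraries; orange, 3 wild-type P0 libraries). The muscle sum lies between 237 and 438 at E17 and between 31.4 and 34.1 at P0, while the epithelial sum is higher in every P0 library.

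Among the general cell machinery, genes of translation rose. Of 17 tested ribosomal and translation genes, 12 rose and none fell, and all 17 rose without scaling. Eef2, an elongation factor, went from 697, 693 and 688 to 1139.6, 1187 and 1125 scaled RPKM (log2 0.73 ± 0.07). In the oxidative phosphorylation list, 2 of 21 rose and 1 fell, and without scaling 14 rose and none fell. Of the secretory pathway genes, 7 of 25 rose and 8 fell, near the 33.3% and 28.3% of all tested genes. Without scaling 14 rose and 5 fell, where over all genes 1120 were higher and 376 lower. The list shared this shift with all genes. Smyd3, a histone methyltransferase, rose from 3.6, 3.85 and 3.5 to 12.9, 14.6 and 9.86 (log2 1.52 ± 0.12). In the chromatin list 10 of 22 rose and 6 fell, against 33.3% and 28.3% of all tested genes. Without scaling 16 of the chromatin list rose and none fell, a shift to higher genes also seen over all genes. The 8 Hox B genes in both tables were all below the filter, with a summed level of at most 1.25 scaled RPKM at E17 and 1.15 at P0.

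Stage differences that differed from the double knockout included several of the genes above. Of 2231 genes, 960 passed the interaction test (43%), 590 with a positive and 370 with a negative value of the wild-type minus the double-knockout difference, which is a sign and not a size. In the 12-library fit, 909 genes changed in the same direction in both genotypes, and 159 changed in opposite directions with the interaction test passed. Col1a1 fell by 2.18 (log2) in wild type and rose by 1.34 in the double knockout, with a difference of -3.52 ± 0.20 (limma adjusted p = 1.4e-07). The mesenchyme list as a whole had a median stage difference of -1.06 in wild type and -1.07 in the double knockout. Of its 27 tested genes, 9 were positive and 8 negative in the interaction test, against 26.4% and 16.6% of all genes. In the double knockout 18 of the 27 fell and 6 rose, where 818 of all 2231 genes fell and 639 rose. Slc13a5, the citrate carrier above, fell by 2.47 in wild type and rose by 1.12 in the double knockout, a difference of -3.59 ± 0.18. Ascl5 rose in both genotypes, by 3.68 in wild type and 2.0 in the double knockout, a difference of 1.67 ± 0.13 (limma adjusted p = 1.4e-06). Tcf7 rose by 1.08 in wild type and differed by -0.37 in the double knockout, a difference of 1.46 ± 0.17.

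**Figure D5:**
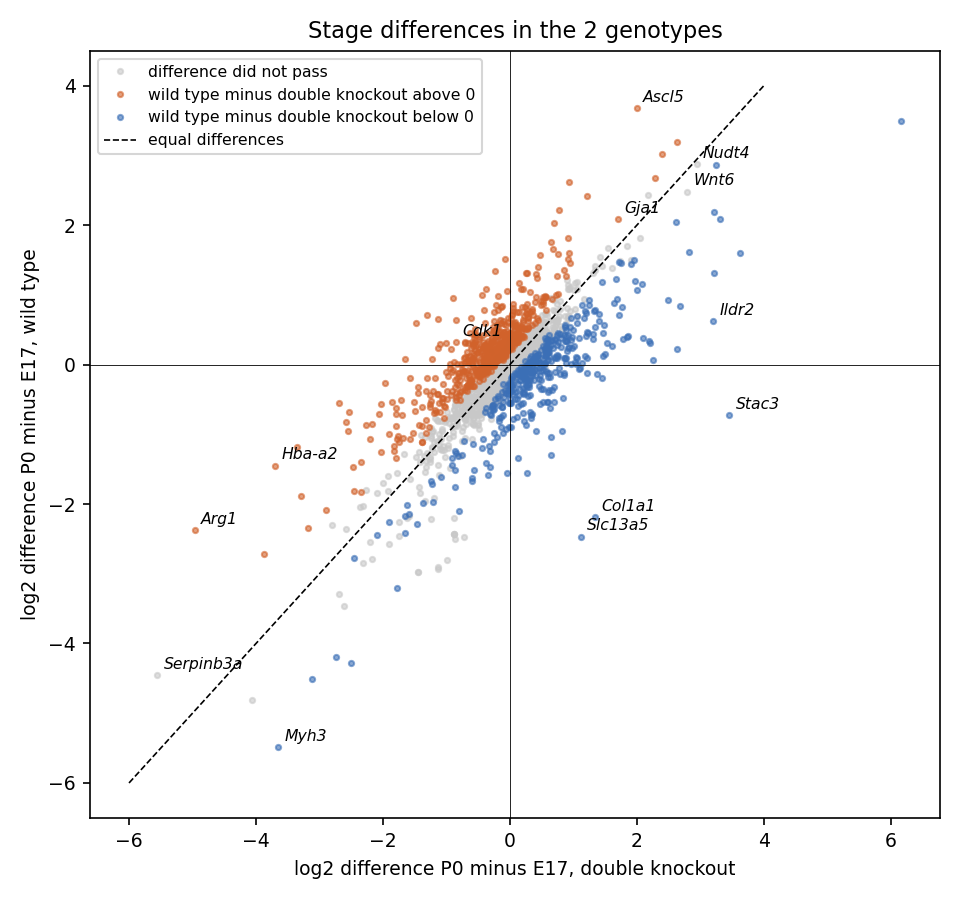
Log2 difference between P0 and E17 in wild type (y axis) and in the double knockout (x axis) for 2231 genes (colours show the sign of the genotype difference of that stage difference where it passed at an adjusted p under 0.05, and the dashed line marks equal differences). Col1a1 and Slc13a5 lie below 0 in wild type and above 0 in the double knockout, and Ascl5, Wnt6 and Gja1 are above 0 in both.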

How the data were processed

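RNA of 18 dental epithelium libraries was sequenced after depletion of ribosomal RNA, and 6 wild-type libraries (3 at E17, 3 at P0) are compared here, with 6 double-knockout libraries of the same stages for the test between genotypes. Per the submitters' processing notes the authors used Partek on the mouse build mm10; the aligner, the annotation, the software version and whether strand was used were not given in the sources used here, so reads of overlapping genes on opposite strands could not be told apart. The authors deposited 1 value per transcript, which is an RPKM value as read from the file: 85.9% to 88.3% of low values of single-transcript genes were whole multiples of 1 read, within 0.1 reads. No source states the unit. The deposited count of alignments per library is given per the file headers. No rows of samples outside the series were found (0).

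RPKM was summed per gene symbol over the 15870 transcripts in both tables and scaled to a common upper quartile. Genes that reached a value of 1 in 3 or more libraries were tested on log2(value + 1) with limma 3.58.1 (trend, two-sided, Benjamini-Hochberg, threshold 0.05) in R 4.3.3. The genotype test was an interaction over 12 libraries. Tables were read with Python 3.11.15 and pandas 2.3.3. The fits were tested on simulated data. Positions are of GENCODE M21 (mm10), promoters of RefSeq (GRCm38.p6, first entry per symbol, 1740 of 2149 tested genes matched). Alternatives were no scaling, median-of-ratios scaling, no filter, a pseudocount of 0.1, no trend, a minimum difference, all transcripts of each table, 12 libraries, the replicate block and each library left out; leaving out with the full filter kept was added after the data were seen.

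Genes named are the 12 largest rises and 12 largest falls (mean of at least 5 in the higher group, no overlap, same call without scaling), up to 4 per list by p, a chosen set of 25, and the 6 largest interactions per direction; other list members, and Ascl5 and Nek2 among the interactions, were chosen after their values were seen. The lists and genes were chosen with earlier results of these data known. Predicted and small RNA symbols among the called genes (87) are counted, not named. Some genes of the lists are not reported here by name; they remain in the counts over lists and over all genes.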

Additional observations from a re-analysis of the deposited data

Results flagged for a closer look

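For 26 selected genes the difference between P0 and E17 differed between wild type and the double knockout by the interaction test (limma, adjusted p under 0.05, 3 libraries per group). The 26 were taken from the largest interactions per direction and from the chosen set. They are not all the named genes that passed. Others, among them Ascl5, Nek2, Enpp1 and Tgfb2, passed as well and are not counted here. The values are the wild-type stage difference minus the double-knockout stage difference, on log2(scaled RPKM + 1).

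The wild-type difference was the higher in 12 of the selected genes, with interaction values of Arg1 2.6, Hba-a2 2.25, Serpinb12 2.17, Lypd1 2.14, Kcnmb4 2.02, Phlda1 1.86, Twist2 1.85, Tcf7 1.46, Cdk1 1.17, Hba-a1 1.14, Lgr6 0.419 and Gja1 0.373. It was the lower in 14 of them, with interaction values of Lgr5 -0.361, Perp -0.488, Nts -0.652, Lamb3 -0.783, Fgf18 -0.836, Wnt10a -0.926, Atp2b1 -1.46, Sparc -1.82, P4ha2 -2.18, Coro6 -2.4, Ildr2 -2.57, Col1a1 -3.52, Slc13a5 -3.59 and Stac3 -4.18. Lgr5 and Perp did not pass without scaling (limma adjusted p = 0.36 and 0.12). Lgr5 fell in both genotypes, from a mean of 5.38 to 0.335 in wild type and from 3.38 to 0.176 in the double knockout. Both P0 means were under 1, where the added 1 of log2(scaled RPKM + 1) weighs on the difference. The negative value of Lgr5 therefore does not show a larger fall in proportion in wild type.

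Stac3, a protein of muscle excitation, had the most negative value, with means at E17 and P0 of 4.25 ± 1.25 and 2.18 ± 0.813 (wild type) against 1.43 ± 0.129 and 25.7 ± 1.99 (double knockout) (SD, n = 3, 12 libraries scaled together). P4ha2, a collagen prolyl hydroxylase, was at 33.9 ± 1.51 and 35.8 ± 5.91 (wild type) against 21.2 ± 1.12 and 105 ± 7.41 (double knockout). Arg1, an arginase, varied widely between double-knockout libraries at E17, at 6.43 ± 3.16 and 0.338 ± 0.0556 (wild type) against 41.5 ± 26.5 and 0.123 ± 0.0553 (double knockout).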

How the results depend on the processing

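No named gene that was called changed sign under any alternative run (0), and 5 that were not called did (Car4, Cry1, Nts, P4ha2 and Stk36). The median over all genes changed sign without the filter, and with it the order of the counts of higher and lower genes. With each library left out and the full filter kept (an alternative chosen after seeing the data), 132 to 136 of the 137 named genes kept their side of the threshold; those that lost or gained a call were Cox5b, Gli1, Hlf, Lgr6, Mpc2, Pfkfb2 and Stac3 (lost) and Atp5d and Hhat (gained). Without scaling, 7 named genes lost and 5 gained a call. The cause of these changes was not tested.

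Without scaling, 1120 genes were higher and 376 lower, and the median was 0.244. The median was 0.0814 with median-of-ratios scaling, -0.0142 without the filter (723 higher) and 0.032 with 12 libraries. Without the filter 921 genes were lower. At an absolute log2 difference of at least 1, 75 were higher and 147 lower. Leaving out 1 library gave 591 to 757 higher and 467 to 564 lower genes and a median of 0.0391 to 0.0898; without an E17 library, genes seen only at E17 no longer pass the filter. With the full filter kept these were 618 to 757, 550 to 571 and 0.0337 to 0.0681, with 0.0515 without P0 replicate 2.

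For the interaction, no scaling gave 1021 positive and 191 negative genes, a minimum difference of 1 gave 61 and 69, median-of-ratios scaling gave 475 and 470, and leaving out 1 library gave 525 to 604 and 316 to 377.

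The replicate numbers were not shown to pair the libraries: same-numbered deviations correlated at -0.03, -0.11 and -0.01, and not every library correlated best with its own number. With the replicate block, 672 genes were higher and 587 lower, and 563 positive and 362 negative in the interaction. Of the named genes, Cox5b lost its call under the block.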
